A study of Mus musculus with 24 samples.

Results

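The cytosolic ribosomal protein genes were followed in mouse CD8+ T cells activated in culture and exposed to 1 of 7 bile acids. Members were the rows whose gene symbol is that of a cytosolic ribosomal protein (Rpl or Rps with a number and at most the letter a, x or y, Rplp0 to Rplp2, and Rpsa) and that are not annotated as pseudogenes. This rule gave 76 of 24537 genes in the table, 46 of the large and 30 of the small ribosomal subunit, and it used no measured value. Rps3a1 and Fau, which also encode ribosomal proteins, fall outside it and are described beside the members. All 76 passed the filter on low counts, with 7371.5 to 121228 counts per library.

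The 8 groups held 3 libraries each. Besides the control there were 5 unconjugated acids at 50 µM: LCA (lithocholic acid), UDCA (ursodeoxycholic acid), and the LCA relatives IsoLCA, IsoAlloLCA and DehydroLCA. The taurine conjugates TCA (taurocholic acid) and TCDCA (taurochenodeoxycholic acid) were used at 100 µM. Exposure is given as 24 h in the design text and as overnight in the treatment protocol. The labels give no strain, age or genotype of the mice, and do not say what the control cells received. Nothing in them tells whether replicates are separate animals or cultures, so the p-values may measure only technical spread. The conjugated acids differ from the unconjugated ones in dose as well as in structure.

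Each ribosome is built from a small subunit, which decodes the mRNA, and a large subunit, which joins the amino acids, and most ribosomal proteins are present once in each ribosome. Their mRNAs are among the most abundant in a dividing cell and belong to the terminal oligopyrimidine (TOP) class: they begin with a C followed by a run of pyrimidines, and their translation is held back by Larp1 when the kinase complex mTORC1 is inactive. T cells enlarge and make many ribosomes after activation, with Myc and mTORC1 driving ribosome production. mRNA counts, as measured here, do not report on this translational control.

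The libraries held 25998051 to 41024340.5 counts in genes, and 75.6% to 84.7% of the library totals lay in exons. Cd3d, Cd3e, Cd3g, Cd8a, Cd8b1 and Lck, which mark CD8+ T cells, stood at 222 to 774 CPM (counts scaled to library size) in every library, and the highest value of Cd4 was 1.16 CPM. The B cell, myeloid, NK cell and erythroid markers and Col1a1 reached at most 1.12 CPM, and Epcam 2.68 to 4.38 CPM. In such bulk samples fewer cells of a type and less RNA per cell cannot be told apart.

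RefSeq promoter windows on GRCm38.p6 were matched by symbol to 56 of the 76 members, and the other 20 had no entry in the table. The following stretches run from 60 bases before to 30 bases after the annotated start, 5′ to 3′ on the gene's strand. Capitals mark a start-site pyrimidine motif (CTTTC, or the variants CTTTT or CTTCC) between 10 bases before and 20 bases after the start, and CCGGAAG, the core of an ETS factor site, on either strand. CTTCC overlaps the reverse complement of CCGGAAG. Rpl37a, Rpl41, Rpl39 and Rpl36a are shown because they were among the largest falls with LCA, Rpl38 and Rpl35 because they led the falls with UDCA, Rps27, Rps21 and Rps15a because they led the rises with IsoAlloLCA, and Rpl15 as a member called in no comparison with control.
Rpl37a (chr1:72711200-72711289, plus strand): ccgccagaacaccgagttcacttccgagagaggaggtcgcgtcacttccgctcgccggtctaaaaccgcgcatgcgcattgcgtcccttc
Rpl41 (chr10:128549139-128549228, minus strand): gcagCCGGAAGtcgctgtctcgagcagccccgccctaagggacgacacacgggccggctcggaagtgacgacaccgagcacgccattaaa
Rpl39 (chrX:37085193-37085282, minus strand): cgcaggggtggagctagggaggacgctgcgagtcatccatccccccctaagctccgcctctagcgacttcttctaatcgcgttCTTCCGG
Rpl36a (chrX:134585594-134585683, plus strand): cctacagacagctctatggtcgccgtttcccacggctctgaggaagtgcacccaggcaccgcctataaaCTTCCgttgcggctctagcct
Rpl38 (chr11:114668520-114668609, plus strand): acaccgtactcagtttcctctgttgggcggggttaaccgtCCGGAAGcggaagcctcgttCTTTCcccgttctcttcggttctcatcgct
Rpl35 (chr2:39005102-39005191, minus strand): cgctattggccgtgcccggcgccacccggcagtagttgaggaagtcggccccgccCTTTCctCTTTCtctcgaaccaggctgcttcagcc
Rps27 (chr3:90213619-90213708, minus strand): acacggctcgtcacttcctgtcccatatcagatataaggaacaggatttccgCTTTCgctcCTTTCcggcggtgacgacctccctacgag
Rps21 (chr2:180257319-180257408, plus strand): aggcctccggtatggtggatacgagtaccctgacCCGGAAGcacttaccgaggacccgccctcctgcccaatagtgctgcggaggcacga
Rps15a (chr7:118116118-118116207, minus strand): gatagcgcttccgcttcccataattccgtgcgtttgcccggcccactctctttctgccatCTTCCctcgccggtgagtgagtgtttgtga
Rpl15 (chr14:18270957-18271046, minus strand): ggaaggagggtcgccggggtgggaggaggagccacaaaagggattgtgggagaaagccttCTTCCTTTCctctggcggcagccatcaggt

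At least 1 of the start-site motifs was found in 24 of the 56 member windows (42.9%), against 12.5% of all 27025 promoters. CTTTC alone was in 25.0% of members and 3.66% of all promoters, CTTCC in 21.4% and 6.48%, and CTTTT in 8.93% and 3.03%. Over the whole window of 250 bases before to 50 after the start, on both strands, CCGGAAG was in 39.3% of members and 9.12% of all promoters, the GC box core GGGCGG in 60.7% and 35.9%, and the E box CACGTG, which Myc can bind, in 8.93% and 7.24%. TATAAA between 60 bases before the start and the start was in 0 of 56 members and 3.15% of all promoters. In Rpl36a and Rplp0 this motif lay after the annotated start and was not counted. All these counts are letter matches in a fixed window and depend on the annotated start. The annotated start lay within 5 bases of the start used in the count table for 51 of the 56. For Rpl38 it lay 37 bases away and for Rps28 64, the largest distance.

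Start-site motifs occurred both in members that changed and in members that did not. A start-site motif was present in 9 of the 26 members with a window that fell with LCA and in 15 of the 30 that were not called. With UDCA the counts were 6 of 14 that fell and 18 of 42 not called. With IsoAlloLCA they were 7 of 17 that rose and 17 of 38 not called. These are counts with no test.

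Per kilobase of transcript, the mean level over the 24 libraries was highest for Rpl41 (3001 CPM per kb), Rpl32 (2341), Rplp1 (2127), Rplp0 (2109) and Rpl4 (2052), and lowest for Rps15a (129), Rpl22 (164) and Rps20 (224). The lengths are those of 1 RefSeq transcript per gene, and the low values of Rps15a and Rps20 go with listed transcripts of 5127 and 3440 bases. Members are short, with a median length of 705.5 bases against 2744 for all tested genes. They lie on 19 chromosomes, with 14 on chromosome 7 and 7 on chromosome 11.

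Within groups the members varied little, about as much as other genes at or above the level of the lowest member, and they varied together. The median SD within groups, on the log2 scale, was 0.0493, against 0.0754 for all 13044 tested genes and 0.0502 for the 574 other genes at or above the level of the lowest member. The 8 group means spanned a median of 0.17 log2 units per member, against 0.328 for all tested genes. Within groups, deviations of 2 members had a median correlation of 0.69 over 2850 pairs, and 96.5% of pairs were positive. Calls of members are therefore not independent of each other. For the other genes at that level, neither the span of group means nor the correlation was computed. The widest spans of group means belonged to Rpl37a, Rps27, Rpl41, Rps28 and Rpl39 (0.37 to 0.44 log2 units), and Rpl10, Rpl30, Rpl29 and Rps13 were among the narrowest.

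Part of that shared variation lay among the controls. Control replicate 1 was the lowest of the 3 control libraries for 69 of the 76 members and replicate 3 the highest for 73. The median member stood -0.04, 0.034 and 0.091 log2 units from its mean over all libraries in control replicates 1, 2 and 3. Their exonic shares of reads were 81.1%, 82.9% and 83.8%. Whether this share had a part in the members' levels was not tested.

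Members together took 6.32%, 6.55% and 6.70% of counts in genes in the controls. With IsoAlloLCA they took 7.11%, 7.17% and 6.90%, above every library of the other groups. With UDCA they took 6.12%, 6.35% and 6.05%, and with LCA 6.30%, 6.22% and 6.58%, both overlapping the controls. The other group means lay between 6.35% and 6.55%. This share is not the whole picture for IsoAlloLCA: after TMM scaling, which allows for changes in other abundant genes, the summed members stood at 68405 ± 1796 CPM (SD, n = 3) with IsoAlloLCA and 66202 ± 2846 CPM in control, and the libraries overlapped.

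**Figure D1:**
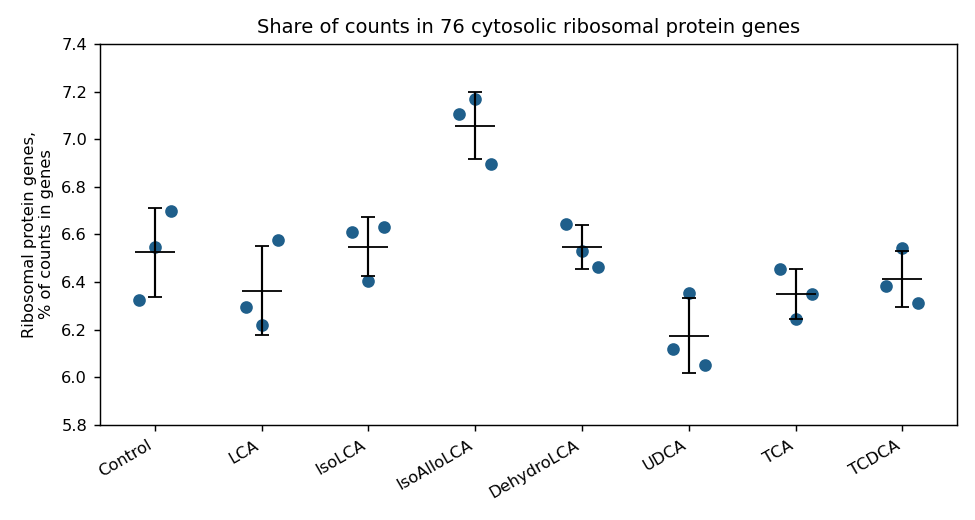
Share of all counts in genes (y axis, percent; the axis does not start at 0) that fell in the 76 cytosolic ribosomal protein genes, for each of the 24 libraries by group (x axis). Points are libraries, bars the mean with SD. The IsoAlloLCA libraries sit at 6.90% to 7.17%, above all others.

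LCA lowered part of the ribosomal protein mRNAs. In this group 32 of 76 members fell and none rose, while 18.8% of all tested genes fell and 17.7% rose (edgeR quasi-likelihood test, Benjamini-Hochberg adjusted p under 0.05 over 13044 genes). At an unadjusted p under 0.05, 37 members were lower and 1 was higher. DESeq2 called 33 lower and 0 higher. Here and below, percentages of all tested genes belong to the edgeR adjusted threshold. They are not a background for counts at an unadjusted p or from DESeq2. The median member had a log2 fold change of -0.082, against 0.014 for all tested genes. The changes were small: 3 members passed 1.2-fold, while 17.3% of all tested genes were called past that size. Both subunits took part, with 13 of 30 small and 19 of 46 large subunit members falling.

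The largest falls with LCA were those of Rps28, Rpl37a, Rpl41 and Rpl39. Rps28, a protein of the small subunit near the mRNA exit, read 342, 346 and 362 CPM in control replicates 1, 2 and 3 and 264, 283 and 304 CPM with LCA, a log2 fold change of -0.30 ± 0.0406 (SE), adjusted p = 2.55e-06. Rpl37a, a zinc-binding protein of the large subunit, read 412, 417 and 445 CPM in control and 343, 332 and 363 with LCA (-0.30 ± 0.0443, adjusted p = 1.13e-05). For both genes each LCA library lay below each control library. Rpl41, which encodes the shortest ribosomal protein, read 1320.4, 1387 and 1428 CPM in control and 1152, 1021 and 1228 with LCA (-0.28 ± 0.0532, adjusted p = 0.000186). Rpl39, whose product lines the tunnel through which the new protein leaves, read 435, 460.2 and 472 CPM in control and 363, 379 and 406 with LCA (-0.25 ± 0.0455, adjusted p = 0.000104). The groups did not overlap for these 2 genes either. Rps29 (-0.25 ± 0.0477) and Rpl36a (-0.24 ± 0.0405) followed, named here for their place in the order. Values after ± in such brackets are SEs of the log2 fold change. In all 6 fits that left out 1 of the LCA or control libraries, Rps28, Rpl37a, Rpl41 and Rpl39 remained called.

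Members with a known role of their own also fell. Rpl22, which is needed for the development of αβ T cells in mice, read 369.8, 377 and 388 CPM in control and 324, 321 and 339 with LCA (-0.21 ± 0.0394, adjusted p = 0.000205), without overlap. Rps25, which some viral and cellular internal ribosome entry sites need, had a log2 fold change of -0.20 ± 0.0374, adjusted p = 0.00017, and Rpl38, which supports the translation of Hox mRNAs in the embryo, -0.15 ± 0.0378, adjusted p = 0.00339. Of members that can bind and inhibit Mdm2 when not built into ribosomes, 3 were listed here and all 3 fell. These were Rpl5 (-0.15), Rpl23 (-0.12) and Rpl11 (-0.13), with Rpl11 overlapping between the groups. Of the P stalk, which recruits elongation factors, Rplp0 (-0.11) and Rplp1 (-0.11) fell, with overlap, and Rplp2 read -0.029 (adjusted p = 0.597). Of 7 genes listed here as mutated in Diamond-Blackfan anaemia, Rps10 (-0.15), Rps26 (-0.14) and Rps24 (-0.13) fell, Rps24 with overlap. Rps19, Rpl26, Rpl35a and Rps7 did not pass. Each member was listed under 1 role only, so neither the 7 nor the 3 Mdm2-binding members are a full list. With 1 library left out, Rpl22, Rps25, Rpl38, Rpl5, Rps10 and Rps26 remained called in all 6 fits, Rpl23 in 5, Rpl11, Rps24 and Rplp1 in 3 and Rplp0 in 2.

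Other falls with LCA ran from -0.18 for Rpl9 to -0.093 for Rps13 and included Rps27, Rpl27a, Rps4x, Rpl35, Rps2, Rpl24, Rpl31, Rpl13, Rpl32, Rps16 and Rpl21.

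Not all members went this way. Rps6, the S6 kinase substrate, had a log2 fold change of -0.01 ± 0.038 (adjusted p = 0.855), and Rpl13a, Rps3 and Rpsa were also not called. Rps7 was higher in every LCA library (804, 800.1 and 837 CPM) than in every control library (710.1, 768 and 796 CPM), and missed the threshold (0.10 ± 0.0466, adjusted p = 0.088).

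The LCA result depended on how transcript length was treated. With offsets that remove each library's trend of counts on length, 8 members were called higher and 13 lower. Under these offsets 36.3% of all tested genes were called in either direction. The median member moved to -0.0045. Rps28 (-0.26), Rpl22 (-0.21), Rpl37a (-0.20), Rpl41 (-0.18), Rpl39 (-0.16), Rpl5 (-0.15) and Rps25 (-0.11) kept their calls under these offsets, while Rpl11, Rpl23, Rpl38, Rplp0, Rplp1, Rps10, Rps24 and Rps26 did not. Leaving out LCA replicate 2, the lowest of that group for the median member, brought the count from 32 to 20. The exonic share of reads was 80.7% ± 1.52 (SD, n = 3) with LCA and 82.6% ± 1.37 in control, and its part in the result was not tested.

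UDCA also lowered part of the members. In this group 19 of 76 members fell and none rose, against 10.7% of all tested genes falling and 9.18% rising. At an unadjusted p under 0.05, 44 were lower and 0 higher, and DESeq2 called 31 lower and 0 higher. Over all genes DESeq2 called 2411 in either direction, and the share at the unadjusted threshold is not given. The median member had a log2 fold change of -0.092 (0.0091 for all tested genes), and 74 of 76 estimates were below 0. Of the members that fell, 17 were among the 46 of the large subunit and 2 among the 30 of the small subunit. The median estimate was -0.097 for the large subunit, with 45 of 46 below 0, and -0.080 for the small subunit, with 29 of 30 below 0. Whether the subunits differed was not tested. None passed 1.2-fold, a size at which 8.94% of all tested genes were called, and the lowest member stood at 0.859 of control.

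Rpl38 was the largest fall, from 294, 305 and 314 CPM in control to 265, 258 and 261 with UDCA (-0.22 ± 0.038, adjusted p = 0.000177). Rpl35, whose product lies at the exit of the tunnel, went from 437, 461 and 484 to 416, 407 and 410.1 CPM (-0.16 ± 0.0339, adjusted p = 0.00115). Rpl6, another large subunit protein, went from 1201, 1243 and 1298 to 1132, 1159 and 1088 CPM (-0.15 ± 0.0351, adjusted p = 0.00372). The groups did not overlap for these 3 genes, nor for Rpl34 (-0.16 ± 0.0394, adjusted p = 0.00479), and each kept its call in all 6 fits with a library left out. Of the listed Mdm2-binding members Rpl5 (-0.13 ± 0.0367) and Rpl23 (-0.11 ± 0.0367) fell and Rpl11 read -0.081 ± 0.0424 (adjusted p = 0.191). Rps3, whose product sits at the mRNA entry and also has roles in DNA repair and NF-κB signalling, fell (-0.14 ± 0.0441), with overlap. Of these, Rpl5 remained called in 4 of the 6 fits and Rpl23 and Rps3 in 2. None of the 3 P stalk members and none of the 7 listed Diamond-Blackfan genes was called.

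The other 12 falls with UDCA ran from -0.15 for Rpl8 to -0.087 for Rpl29. They were all of the large subunit except Rps23, and included Rpl7, Rpl36, Rpl27, Rpl18, Rpl3, Rpl10a, Rpl13, Rpl24 and Rpl36a.

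Length offsets did not remove the UDCA result: 36 members were then called lower and 0 higher, and the median was -0.095. Under these offsets 20.8% of all tested genes were called in either direction. The count moved with single libraries, from 19 to 40 without control replicate 1, to 7 without control replicate 3, to 10 without control replicate 2, to 8 without UDCA replicate 3 and to 12 without UDCA replicate 1. In each of these fits all called members were lower. The median member ranged from -0.13 to -0.063 over the 6 fits.

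IsoAlloLCA raised members of both subunits, at a rate no higher than that of all tested genes. Here 22 of 76 members rose (28.9%) and 1 fell, while 30.6% of all tested genes rose and 27.8% fell. The members thus rose about as often as the background and fell in 1.32% of cases. The median member had a log2 fold change of 0.045, against 0.026 for all tested genes. Rises were counted in 13 of 30 small and 9 of 46 large subunit members, with medians of 0.068 and 0.038. Whether the subunits differed was not tested. None passed 1.2-fold, a size at which 36.9% of all tested genes were called.

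Rps27, a zinc-binding protein of the small subunit, read 371, 384 and 396 CPM in control and 468, 462 and 440.3 with IsoAlloLCA (0.25 ± 0.0423, adjusted p = 1.63e-05). Rps21 read 266, 296 and 303 CPM in control and 351, 327 and 330.0 with the acid (0.22 ± 0.0479, adjusted p = 0.000315), and Rps15a 624, 642 and 666 against 757, 761 and 717 (0.21 ± 0.0369, adjusted p = 2.84e-05). All 3 are small subunit proteins, and in each case every IsoAlloLCA library was above every control library. Rps18, in the head of the small subunit, rose by 0.17 ± 0.0478, adjusted p = 0.00358, again without overlap. The exception was Rps2, whose product sits near the mRNA entry: it read 1635, 1608 and 1657 CPM in control and 1551, 1444 and 1475 with IsoAlloLCA (-0.13 ± 0.0364, adjusted p = 0.00312). Rps27, Rps21, Rps15a and Rps2 remained called in all 6 fits with a library left out.

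Of the listed Diamond-Blackfan genes Rps19 (0.15 ± 0.0428), Rps7 (0.13 ± 0.0466), Rps24 (0.12 ± 0.0419) and Rpl26 (0.11 ± 0.0382) rose, Rps7 with overlap. Rplp1 was the only P stalk member that passed (0.10 ± 0.0392), and Rps3 (0.12 ± 0.0441) rose with overlap. Of the rises, Rps19 and Rps18 remained called in 5 of the 6 fits with a library left out, Rps24 and Rps3 in 4, Rps7 in 3, Rpl26 in 2 and Rplp1 in 1. None of the 3 listed Mdm2-binding members was called, and Rps6 (0.022 ± 0.0381) was not called. Other rises ran from 0.16 for Rps14 to 0.10 for Rps12 and included Rpl17, Rps15, Rpl9, Rps9, Rpl19 and Rpl34. Among the members that led the falls with LCA, Rpl37a (0.15 ± 0.0443) and Rpl39 (0.12 ± 0.0454) rose with IsoAlloLCA, and Rps28 (0.088 ± 0.0405) and Rpl41 (0.11 ± 0.0531) did not pass. Both comparisons use the same control libraries.

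The IsoAlloLCA rises moved with the settings. Relative log expression factors in place of TMM gave 9 higher and 1 lower, DESeq2 10 higher and 3 lower, and length offsets 13 higher and 6 lower. Over all genes these settings called 7583, 7202 and 7704, in that order. Without control replicate 1 the fit called 3 higher and 5 lower, with a median of 0.0057, and the count was 10 without IsoAlloLCA replicate 1 and 14 without control replicate 2 or without IsoAlloLCA replicate 2. The exonic share of reads was 78.3% ± 2.78 (SD, n = 3) in the IsoAlloLCA libraries, below the 82.6% ± 1.37 of control. Its part in the result was not tested.

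The other acids left nearly all members uncalled. With IsoLCA 1 member fell and none rose, where 6.12% of all tested genes fell and 3.73% rose. This was Rpl38 (-0.13 ± 0.0378, adjusted p = 0.0335). Its libraries read 283, 272 and 281 CPM, each below the controls, and the call was lost in 5 of the 6 fits with a library left out. With TCDCA 1 member fell and none rose, where 8.04% of all tested genes fell and 5.08% rose. This was Rpl3, whose product reaches the catalytic centre (-0.14 ± 0.0354, adjusted p = 0.0117). It read 1241, 1273 and 1251 CPM against 1315, 1387 and 1433 in control. The TCDCA count was 7 without control replicate 1, and 0 without control replicate 2, without control replicate 3 or without TCDCA replicate 1.

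DehydroLCA and TCA gave no called member, where 5.83% and 0.437% of all tested genes were called. At an unadjusted p under 0.05, 4 members were lower with DehydroLCA and 12 with TCA, none was higher, and DESeq2 called 0 in both. The share of all tested genes at the unadjusted threshold is not given. The lack of calls does not show that the members were unaffected. The 95% intervals of single members reached from -0.19 to 0.19 with DehydroLCA and from -0.21 to 0.092 with TCA. The median member stood at -0.0057 with DehydroLCA, -0.0032 with IsoLCA, -0.055 with TCA and -0.044 with TCDCA, and 75 of 76 estimates were below 0 with TCA. In all, 18 of the 76 members were called in none of the 7 comparisons with control.

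**Figure D2:**
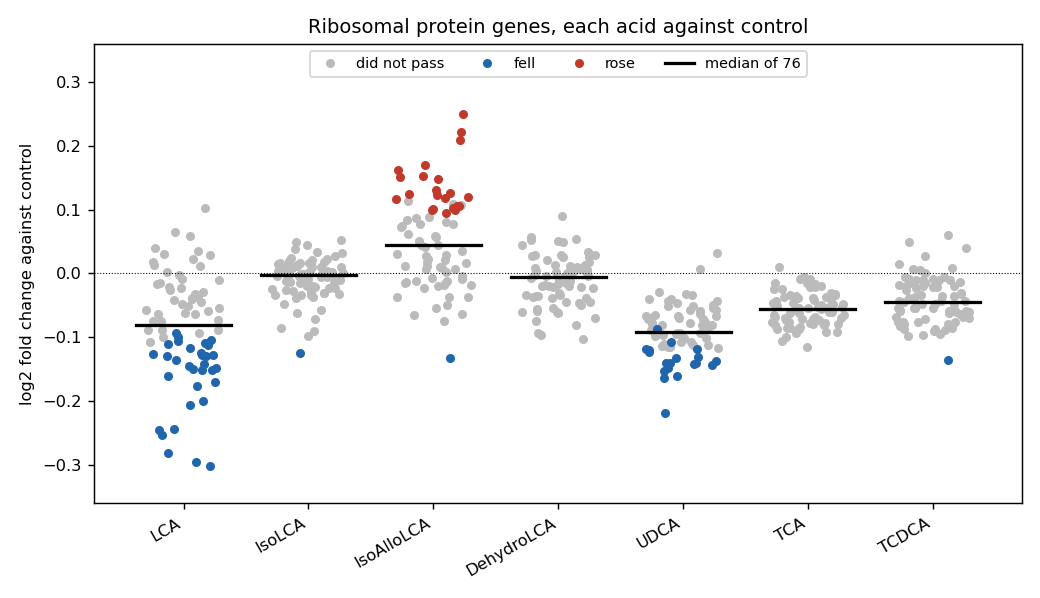
log2 fold change of each of the 76 members against control (y axis) for the 7 acids (x axis), with members that rose in red, fell in blue and did not pass in grey, and the median as a bar. The medians stand at -0.082 with LCA, -0.092 with UDCA and 0.045 with IsoAlloLCA, and horizontal scatter within a column has no meaning.

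**Figure D3:**
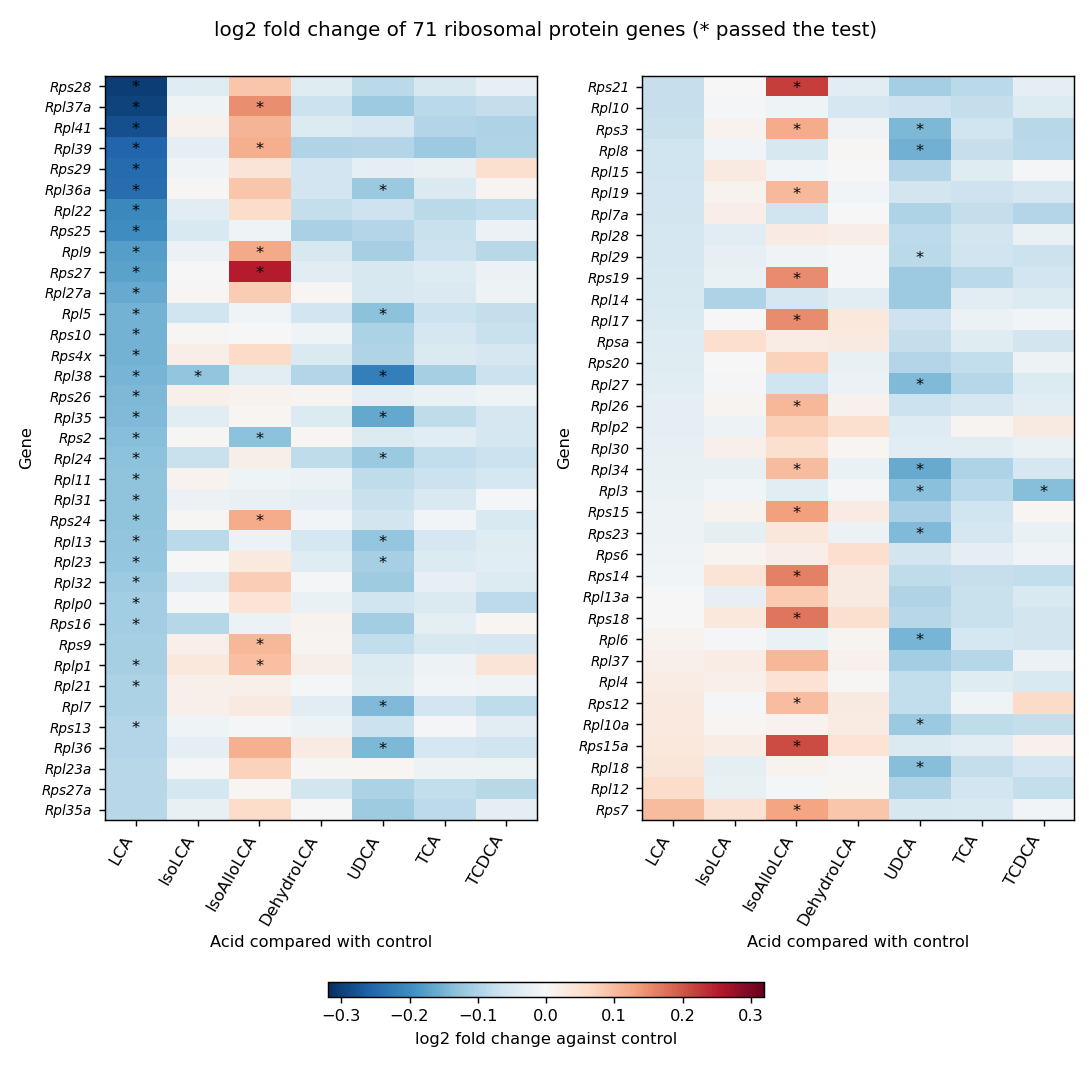
log2 fold change of 71 members (rows, ordered by the LCA value and continued in the right panel) for each acid against control (columns), with an asterisk where the test was passed. The LCA falls lead from Rps28 and Rpl37a, the UDCA falls are spread through the order with Rpl38 deepest, and the IsoAlloLCA rises are strongest for Rps27, Rps21 and Rps15a.

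In addition, 5 pairs of related acids at equal dose were set against each other, with p-values adjusted over the genes of each pair and not over the pairs. IsoLCA is LCA with its ring hydroxyl in the opposite orientation. Against LCA, 26 of 76 members were higher with IsoLCA and none lower, where 15.8% of all tested genes were higher and 14.6% lower. At an unadjusted p under 0.05, 32 were higher and 1 was lower, and DESeq2 called 29 higher and 0 lower. The shares of all tested genes for these counts are not given. Rpl41 was higher by 0.30 ± 0.0532, adjusted p = 0.000186, Rpl37a by 0.28 ± 0.0443, adjusted p = 4.04e-05, Rps28 by 0.26 ± 0.0406, adjusted p = 3.15e-05 and Rpl36a by 0.25 ± 0.0404, adjusted p = 6.38e-05, each with every IsoLCA library above every LCA library. For Rps28 the IsoLCA libraries read 348, 329 and 346 CPM. Of the members with known roles Rpl39 (0.22 ± 0.0455), Rpl22 (0.17 ± 0.0393), Rps10 (0.16 ± 0.0388), Rps26 (0.16 ± 0.0371) and Rps25 (0.15 ± 0.0374) were also higher, in all 6 fits with a library left out. Rpl12 had the lowest estimate (-0.081 ± 0.0348), with a 95% interval of -0.15 to -0.0095, and was not called (adjusted p = 0.0786). With length offsets the split turned to 9 higher and 17 lower, where 29.3% of all tested genes were called in either direction. The median turned from 0.067 to -0.031. The calls of Rpl41, Rpl37a, Rps28, Rpl36a, Rpl22 and Rpl39 were kept under these offsets, while Rps10 (0.033), Rps26 (0.038) and Rps25 (0.043) were no longer called. The count was 16 without LCA replicate 2 or without IsoLCA replicate 1.

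DehydroLCA carries a ketone where LCA carries that hydroxyl. Here 16 members were higher than with LCA and none lower, where 10.3% of all tested genes were higher and 7.49% lower. At an unadjusted p under 0.05, 32 were higher and 0 lower, and DESeq2 called 19 higher and 0 lower. The shares of all tested genes that go with these counts are not given. Rps28 (0.26 ± 0.0406, adjusted p = 6.28e-05), Rpl41 (0.24 ± 0.0532, adjusted p = 0.00299), Rpl37a (0.23 ± 0.0444, adjusted p = 0.0009) and Rps29 (0.18 ± 0.0477, adjusted p = 0.00882) led, without overlap between the libraries. Rps28 read 344, 345 and 334 CPM with DehydroLCA. Rps26 (0.15 ± 0.0371) was higher in all 6 fits with a library left out, Rps10 (0.14 ± 0.0388) in 3, and Rpl22 (0.13 ± 0.0394), Rpl39 (0.16 ± 0.0455) and Rplp1 (0.12 ± 0.0392) in 2. For Rpl39 the libraries overlapped between the groups. Length offsets gave 5 higher and 3 lower, where 16.7% of all tested genes were called in either direction. These offsets gave a median of 0.0011 in place of 0.068. Under them Rps28, Rpl41, Rpl37a and Rpl22 were still called higher, while Rps29, Rps26, Rps10, Rpl39 and Rplp1 were not (0.037 to 0.11). The count was 6 without LCA replicate 1 or without LCA replicate 2, 8 without DehydroLCA replicate 1 and 10 without DehydroLCA replicate 2.

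UDCA carries 1 hydroxyl more than LCA. Between these acids 10 members were higher with UDCA and 12 lower, where 14.8% of all tested genes were higher and 12% lower, so that the members' counts lay near the background. By transcript length, 8 of the 31 members under 600 bases were higher and 3 lower. Of 444 other genes of that length, 84 were higher and 16 lower. Between 600 and 1000 bases, 1 of 26 members was higher and 5 lower, and 196 of 765 other genes were higher and 52 lower. Of the 15 members between 1000 and 2000 bases, 0 were higher and 4 lower. Of 3007 other genes there, 517 were higher and 319 lower. Among the 4 longer members 1 was higher, and of 8752 other genes 1127 were higher and 1171 lower. Whether length had a part in the direction was not tested. Rpl41 (0.23 ± 0.0532, adjusted p = 0.0022), Rps29 (0.22 ± 0.0478, adjusted p = 0.00135), Rps28 (0.22 ± 0.0407, adjusted p = 0.000267) and Rpl37a (0.18 ± 0.0444, adjusted p = 0.00355) were higher with UDCA. The large subunit members Rpl18 (-0.18 ± 0.0372, adjusted p = 0.000875), Rpl6 (-0.16 ± 0.0351, adjusted p = 0.00128) and Rpl12 (-0.15 ± 0.0348, adjusted p = 0.00163) were lower. None of these 7 overlapped between the groups. Length offsets gave 4 higher and 36 lower, where 27.1% of all tested genes were called in either direction. The offsets kept the calls of Rpl41, Rps29 and Rps28 as higher and of Rpl18, Rpl6 and Rpl12 as lower. Rpl37a lost its call (0.080, adjusted p = 0.0702). The count was 14 without LCA replicate 1 and 13 without UDCA replicate 3.

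IsoAlloLCA differs from IsoLCA in the orientation at the junction of the first rings. With IsoAlloLCA 25 members were higher than with IsoLCA (32.9%) and 3 lower, where 31.7% of all tested genes were higher and 28.1% lower. Rps27 (0.25 ± 0.0423, adjusted p = 1.42e-05), Rps21 (0.22 ± 0.0479, adjusted p = 0.000274), Rps15a (0.19 ± 0.0369, adjusted p = 0.000121) and Rps19 (0.17 ± 0.0428, adjusted p = 0.0011) led the rises. Rps2 (-0.14 ± 0.0364, adjusted p = 0.00246) and Rpl7a (-0.085 ± 0.0357) were lower, the latter in 2 of the 6 fits with a library left out. Rps27 read 396, 366 and 388 CPM with IsoLCA, below each IsoAlloLCA library. The control libraries are not 1 of the 2 groups compared here, but they entered the same fit and its estimate of spread. Length offsets gave 23 higher and 3 lower, where 60.5% of all tested genes were called in either direction. Relative log expression factors gave 14 higher and 3 lower. A fit of only these 2 groups gave 9 higher and 1 lower, and DESeq2 gave 13 higher and 3 lower. Over all genes these 3 settings called 7770, 6604 and 7375, in that order. The count was 13 without IsoLCA replicate 2, 14 without IsoAlloLCA replicate 2 and 16 without IsoAlloLCA replicate 1.

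TCA has 1 hydroxyl more than TCDCA. No member was called between them, where 3.61% of all tested genes were called. At an unadjusted p under 0.05, 1 member was lower with TCA (Rps12, -0.075 ± 0.0339) and none was higher, and DESeq2 called 0. The median difference was -0.013, and the 95% intervals of single members reached from -0.17 to 0.13, so that differences of that size are not excluded. UDCA at 50 µM and TCDCA at 100 µM differ in dose and were not compared. Their log2 fold changes against control were -0.22 and -0.07 for Rpl38 and -0.13 and -0.14 for Rpl3.

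Across the 76 members, the Spearman correlation of transcript length with the log2 fold change was 0.25 with LCA, 0.016 with UDCA and -0.19 with IsoAlloLCA, given as a description over members that share libraries. With LCA, the 31 members under 600 bases had a median of -0.093 and 16 fell, while 444 other genes of that length had a median of -0.019 and 80 fell. Between 600 and 1000 bases the 26 members had a median of -0.069 and 9 fell, while 765 other genes had a median of -0.074 and 205 fell. Between 1000 and 2000 bases the 15 members stood at -0.054 and 3007 other genes at -0.01. At 2000 bases and over, the 4 members had a median of -0.095 and 2 fell, against 0.027 for 8752 other genes. The members' median thus lay below that of other genes in 3 of the 4 classes, and near it between 600 and 1000 bases.

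**Figure D4:**
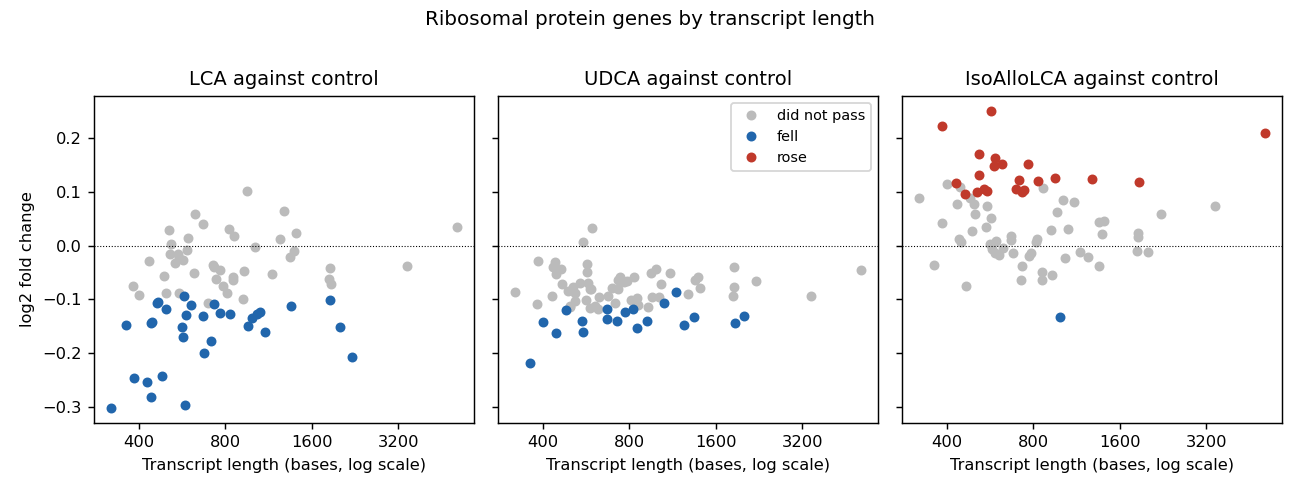
log2 fold change against control (y axis) of the 76 members by transcript length in bases (x axis, log scale) for LCA, UDCA and IsoAlloLCA, with called members coloured by direction. With LCA the deepest falls, Rps28, Rpl37a and Rpl41, lie at 321, 582 and 443 bases, while the UDCA falls have no visible slope on length.

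Genes that make the other parts of the ribosome were read in the same fit. Their counts stand against the shares of all tested genes, of which 17.7% rose and 18.8% fell with LCA, 9.18% rose and 10.7% fell with UDCA, and 30.6% rose and 27.8% fell with IsoAlloLCA. Of 40 factors of RNA polymerase I and the nucleolus, which make and process ribosomal RNA, 20 rose and 1 fell with LCA, with a median of 0.16. With IsoAlloLCA 34 fell and 2 rose, with a median of -0.40. Among them were Nolc1, a nucleolar scaffold (-0.82 ± 0.0646, adjusted p = 8.79e-11), and Bysl, a factor of small subunit assembly (-0.75 ± 0.0557, adjusted p = 2.50e-11). With UDCA 2 of the 40 rose and none fell, with a median of 0.083 and 38 not called. Whether these factors differ from the ribosomal protein genes was not tested. The ribosomal protein median of 0.045 with IsoAlloLCA lay beside 0.026 for all tested genes and was 0.0057 without control replicate 1, and the LCA median of -0.082 was -0.0045 with length offsets.

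The 78 tested mitochondrial ribosomal protein genes, which build a separate ribosome, were read the same way. With IsoAlloLCA 46 fell and 4 rose (median -0.16), with LCA 13 fell and 14 rose (0.033), and with UDCA 1 fell and 7 rose (0.062). The LCA counts and the UDCA rises lay near the shares of all tested genes. Of 41 translation factors 29 fell and 2 rose with IsoAlloLCA (-0.26), led by Eif4g1, the scaffold of cap-dependent initiation (-0.53 ± 0.0398, adjusted p = 3.36e-11). With LCA 11 of them rose and 3 fell. Of 18 ribosomal protein chaperones and importers, 12 fell and 1 rose with IsoAlloLCA (-0.26), and 7 rose and 2 fell with LCA (0.071).

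Called genes among the other mRNAs of the TOP class mostly fell with LCA, only fell with UDCA, and went both ways with IsoAlloLCA. Of 20, 7 fell and 1 rose with LCA, 5 fell and none rose with UDCA, and 5 rose and 7 fell with IsoAlloLCA, the last near the shares of all tested genes. Eef1a1, the main elongation factor, rose with LCA (0.25 ± 0.0539, adjusted p = 0.000616), while Pabpc1, the poly(A)-binding protein, fell (-0.18 ± 0.037, adjusted p = 0.000577). With UDCA Eef2 fell (-0.17 ± 0.0338, adjusted p = 0.000776), and with IsoAlloLCA Tpt1 rose (0.15 ± 0.0339, adjusted p = 0.000624) and Npm1 fell (-0.23 ± 0.0501, adjusted p = 0.000336).

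Of 27 regulators of mTORC1 and TOP mRNAs, 7 rose and 14 fell with IsoAlloLCA, 6 rose and 7 fell with LCA, and 2 rose and 8 fell with UDCA. The IsoAlloLCA rises and the UDCA rises lay near the shares of all tested genes, and the LCA counts not far above them. Larp1 rose with LCA (0.27 ± 0.0413, adjusted p = 1.21e-05) and fell with IsoAlloLCA (-0.30 ± 0.0415, adjusted p = 9.33e-07). Myc read 359 ± 31.8 CPM (SD, n = 3) with UDCA and 357 ± 12.7 with IsoAlloLCA, against 492 ± 30.5 in control, and fell with both (-0.45 ± 0.0671 and -0.46 ± 0.0671) and with LCA (-0.17 ± 0.0667, adjusted p = 0.0474). The UDCA and IsoAlloLCA adjusted p-values for Myc were 2.32e-05 and 1.93e-06. With IsoAlloLCA the rises of this list with the smallest adjusted p were Mxd4, a Myc antagonist (1.73 ± 0.111), Sesn1, an inhibitor of mTORC1 (0.76 ± 0.0544), and Pdcd4, an inhibitor of the initiation factor Eif4a (0.83 ± 0.0644).

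**Figure D5:**
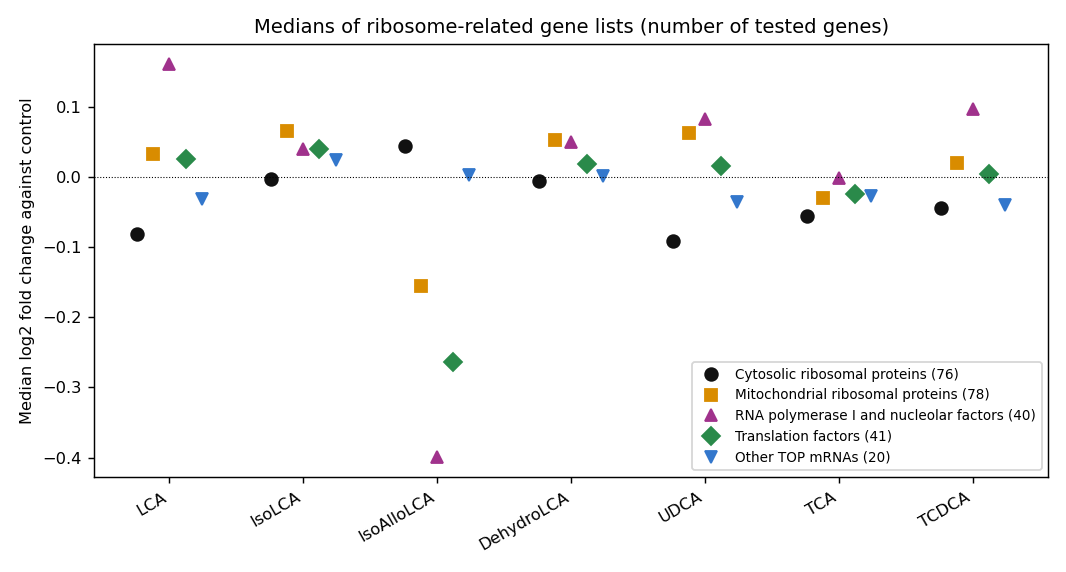
Median log2 fold change against control (y axis) of 5 gene lists, with the number of tested genes in the key, for the 7 acids (x axis). With IsoAlloLCA the cytosolic ribosomal proteins stand at 0.045 while the nucleolar factors stand at -0.40, and with LCA at -0.082 and 0.16.

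Of the ribosomal protein genes outside the rule, Rps3a1 fell with LCA (-0.14 ± 0.0409, adjusted p = 0.00875) and Fau fell with LCA (-0.13 ± 0.0413) and UDCA (-0.21 ± 0.0414, adjusted p = 0.000742). Rps27l, a paralog of Rps27 that p53 induces, fell with LCA (-0.35 ± 0.0543, adjusted p = 1.48e-05) and read 0.017 ± 0.0541 with IsoAlloLCA, where Rps27 rose. Rpl22l1, the paralog of Rpl22, fell with UDCA (-0.25 ± 0.0623, adjusted p = 0.00568) and read -0.0039 ± 0.0614 with LCA, where Rpl22 fell.

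Near-identical copies limit some member values. Rps27 and Rps27rt, and Rpl34 and Rpl34-ps1, lie at the same place in the table and hold almost the same counts (100.1% to 100.5% and 97.1% to 97.5%), so each pair is 1 measurement. Rpl37rt held 26.4% to 29.7% of the count of Rpl37, Rpl36al 26.7% to 37.7% of Rpl36a and Rpl14-ps1 35.7% to 39.6% of Rpl14. The GENCODE M21 annotation has 292 pseudogenes named after ribosomal protein genes, and the sources used here do not state how reads shared with such copies were assigned. Member values are uncertain to that extent.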

How the data were processed

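The deposited table covers the 24 libraries. Per the file headers, the authors ran HOMER to count reads in exons of mm10, with 1 RefSeq transcript for each gene and raw output. STAR, DESeq2 and GRCm38 are also named in the submitters' processing notes, without versions. No source used here names a strand option. The authors' values are expected counts: 29.43% of them end in 0.5, for a reason not stated, and these were rounded up to whole counts. The design had assumed whole counts, and the same test was kept.

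Sample titles gave the group and replicate of each library. The fit used edgeR 4.0.16 under R 4.3.3 (quasi-likelihood, all 24 libraries, TMM factors of 0.971 to 1.05, filterByExpr, 16 residual degrees of freedom), keeping 13044 genes. There were 12 comparisons, 7 with control and 5 between acids at equal dose. Calls needed an adjusted p (Benjamini-Hochberg, all tested genes) under 0.05. SE is the absolute log2 fold change divided by the square root of F, and intervals are 95%. CPM used TMM-scaled library sizes. Replicates differed by more than sampling noise.

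The members and the 6 other gene lists were chosen with earlier results of these data known. Named members are 24 with known roles, the 4 largest rises and 4 largest falls per comparison among called members without overlap, and the extremes of spread. Of the other lists, up to 4 genes with the smallest adjusted p and 12 fixed genes are named. Rps29 and Rpl36a with LCA, Rps28, Rpl41 and Rpl37a outside their own comparisons, Rpl3 with UDCA, and Rps12 were named after their values were seen. Some ribosomal protein genes are not reported here singly, but the counts and medians over all members or lists include them. Alternatives were DESeq2 1.42.0, relative log expression factors, no filter, scaling without members, fits of only the 2 groups, a replicate block, length offsets, length and GC offsets (chosen after seeing the data) and each library left out. The fit was checked on simulated counts.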

Additional observations from a re-analysis of the deposited data

How the results depend on the processing

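Relative log expression factors gave 10 called members with IsoAlloLCA against control and 17 against IsoLCA, where 7583 and 7770 genes were called in all. Without a filter the member counts were 14 and 16, and the IsoLCA count was 0. Over all genes the fit without a filter called 7490, 7669 and 1184, in that order. Fits of only the 2 groups called 8 with IsoAlloLCA, 9 with UDCA and 0 with IsoLCA. Over all genes they called 6464, 2159 and 888. They called 10 members for IsoAlloLCA against IsoLCA and 30 for DehydroLCA against LCA, where 6604 and 3420 genes were called in all. DESeq2 called 13 with IsoAlloLCA, 31 with UDCA and 16 for IsoAlloLCA against IsoLCA. Over all genes DESeq2 called 7202, 2411 and 7375. Length offsets called 21 with LCA (median -0.0045), 2 with IsoLCA, 36 with UDCA, 4 with TCDCA, 8 for DehydroLCA against LCA (median 0.0011) and 40 for UDCA against LCA (median -0.077), and moved the median of IsoLCA against LCA to -0.031. Under them 36.3% of all tested genes were called with LCA, 10.1% with IsoLCA, 20.8% with UDCA and 13.9% with TCDCA. For DehydroLCA and UDCA against LCA the shares were 16.7% and 27.1%. Length and GC offsets, chosen after seeing the data, called 2 with IsoLCA, 1 with DehydroLCA, 33 with UDCA and 5 with TCDCA. Over all genes they called 1353, 855, 2769 and 1899, in that order. They also called 10 members for DehydroLCA against LCA (median -0.0021) and 38 for UDCA against LCA (median -0.074). Over all genes the counts for these 2 pairs were 2313 and 3572. The medians moved to -0.011 with LCA and -0.028 for IsoLCA against LCA. The cause of these shifts was not tested. Scaling without the members moved no count by over 1.5 times.

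With 1 library left out, counts ran from 20 to 42 with LCA, 7 to 40 with UDCA and 8 to 26 with IsoAlloLCA. They ran from 0 to 7 with TCDCA and 0 to 1 with IsoLCA. Between acids they ran from 16 to 31 for IsoLCA against LCA and 13 to 27 for IsoAlloLCA against IsoLCA. For DehydroLCA against LCA they ran from 6 to 19 and for UDCA against LCA from 13 to 17. They stayed at 0 for DehydroLCA, TCA, and TCA against TCDCA. The shares of all tested genes in these fits are not given, so these ranges have no background beside them.

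Medians ran from -0.12 to -0.052 with LCA, -0.13 to -0.063 with UDCA, 0.0057 to 0.066 with IsoAlloLCA, -0.039 to 0.023 with IsoLCA, -0.049 to 0.02 with DehydroLCA, -0.097 to -0.03 with TCA, -0.089 to -0.013 with TCDCA, 0.042 to 0.096 for IsoLCA against LCA, 0.047 to 0.081 for IsoAlloLCA against IsoLCA, 0.053 to 0.091 for DehydroLCA against LCA, -0.035 to 0.018 for UDCA against LCA and -0.024 to 0.0027 for TCA against TCDCA. The shares of counts ran from 6.44% to 6.62% in control, 6.26% to 6.44% with LCA, 6.51% to 6.62% with IsoLCA, 7.0% to 7.14% with IsoAlloLCA, 6.50% to 6.59% with DehydroLCA, 6.09% to 6.24% with UDCA, 6.30% to 6.40% with TCA and 6.35% to 6.47% with TCDCA.

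A replicate block changed no count by over 1.5 times: it called 30 members with LCA, 19 with UDCA and 24 with IsoAlloLCA. The numbers were not taken to pair the samples, since not every same-numbered pair of libraries from different groups correlated over 0.1: 44 of 84 did (median 0.116), against 53 of 168 pairs with different numbers (median -0.063). Noisy pairing could also fail this rule, so shared structure by number remains possible. Calls over all tested genes were more numerous with the block in each of the 12 comparisons. They went from 4765 to 4974 with LCA and from 57 to 84 with TCA. With UDCA they went from 2599 to 2813 and with IsoAlloLCA from 7618 to 7722. Of 84 calls of named members, 82 were kept under the block and 2 were lost. Depth was not limiting, as each member had at least 7371.5 counts in every library.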
